A study of Saccharomyces cerevisiae with 8 samples.

Results

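The genes described here encode 10 carriers of the mitochondrial inner membrane that move phosphate, di- and tricarboxylates, oxoacids and acidic amino acids: MIR1, PIC2, DIC1, OAC1, CTP1, SFC1, ODC1, ODC2, YHM2 and AGC1. They were chosen by name for the substrates of their products, but with earlier results of these data known. They are 10 of the 7105 genes in the deposited table. Transcripts were sequenced in 8 libraries of the diploid budding yeast strain BY4743, 2 (replicates 0 and 1) for each of 4 groups. LEU2, a gene of leucine synthesis, and HIS3 are deleted in this strain. All cells were grown in synthetic complete medium lacking uracil, which selects for the URA3 plasmid that every group carried. ρ+ vector cells had mitochondrial DNA (mtDNA), the empty high-copy plasmid pRS426 and no ethidium bromide (EtBr). ρ0 vector cells carried the same plasmid and were treated for 24 h with 25 µg/ml EtBr, an agent that forces the loss of mtDNA. ρ0 TIP41 and ρ0 PDE2 cells received the same EtBr treatment and carried high-copy TIP41 or PDE2, which encode a Tap42p-binding protein of the TORC1 pathway and a cAMP phosphodiesterase that lowers protein kinase A signaling. EtBr was still in the medium at harvest and the ρ+ cells had none, so EtBr treatment and mtDNA loss cannot be told apart in any comparison with ρ+ cells.

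Carriers of this family are nuclear-encoded proteins that are made in the cytosol and inserted into the inner membrane, where most exchange a solute of the matrix for a solute of the cytosol. Each is built of repeats of a similar sequence, and a short signature beginning with proline recurs in them. In yeast they supply phosphate for ATP synthesis and pass the intermediates of the tricarboxylic acid (TCA) cycle between the matrix and the cytosol, where these intermediates feed the synthesis of amino acids such as leucine, lysine and glutamate.

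The signature and the likeness between members are shown first, since PIC2 and MIR1, and ODC1 and ODC2, encode pairs of carriers with shared substrates, and their levels are compared within each pair. The translated coding sequences of the R64 genome gave proteins of 298 to 324 residues, except AGC1, whose product has 902. All 10 genes have a coding sequence of 1 exon. Odc1p and Odc2p shared 194 of 303 aligned residues (64% identity). Mir1p and Pic2p shared 121 of 296 (40.9%), against a median of 29.5% over the 45 pairs of members. The longest run of identical bases between the coding sequences of ODC1 and ODC2 was 16, and that between MIR1 and PIC2 was 10, both below the read length of 75 bases. The fragments assigned to these 4 genes were whole numbers in all 8 libraries. The signature searched was proline, any residue, aspartate or glutamate, any 2 residues, and lysine or arginine. It occurred from 1 time (Oac1p) to 4 times (Odc1p, Odc2p and Agc1p) in a member, and 1 to 4 times in the proteins of 24 other genes of the family. Some matches lay close together, as at residues 142 and 160 of Odc1p and 138 and 156 of Odc2p. The count of matches is therefore not a count of repeats. The coding sequence around the first signature is shown for 7 members, those with a called change and ODC2, as read on the coding strand of the RefSeq R64 genome, with the codons of the proline, the acidic and the basic residue in capitals.
MIR1 (chrX:578053-578094, minus strand): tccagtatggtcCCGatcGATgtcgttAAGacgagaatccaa
PIC2 (chrV:259499-259540, minus strand): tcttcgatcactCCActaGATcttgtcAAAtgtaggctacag
DIC1 (chrXII:827748-827789, minus strand): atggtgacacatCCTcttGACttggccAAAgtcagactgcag
OAC1 (chrXI:217455-217496, plus strand): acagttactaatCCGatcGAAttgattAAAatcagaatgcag
ODC1 (chrXVI:299384-299425, minus strand): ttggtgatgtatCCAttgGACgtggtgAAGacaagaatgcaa
ODC2 (chrXV:758411-758452, plus strand): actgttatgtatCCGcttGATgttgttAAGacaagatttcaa
YHM2 (chrXIII:752066-752107, plus strand): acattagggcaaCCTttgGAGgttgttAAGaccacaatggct

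The libraries held 1389579 to 4884282 fragments in genes, and all 10 members passed the filter on low counts. The 31 mtDNA genes in the table held 9 and 6 fragments in the ρ+ libraries and 0 in each of the 6 ρ0 libraries. The libraries came from polyadenylated RNA, so these few fragments are a weak check of the ρ labels. PDE2 transcript stood at 581 and 639 counts scaled to library size (CPM, the usual per-million unit) in the ρ0 PDE2 libraries and 114 to 184 in the other 6. TIP41 transcript stood at 600.3 and 759 CPM in the ρ0 TIP41 libraries and at 41.2 to 67.5 elsewhere. URA3 transcript, from the plasmid marker, stood at 13420 to 16950 CPM in the vector libraries of ρ+ and ρ0 cells. It was at 5658 and 7211 CPM with TIP41 and at 1915 and 2700 with PDE2. The plasmid groups therefore differed in the marker transcript as well as in the insert. Whether this bears on the carrier levels was not tested. Levels below are CPM scaled by the trimmed mean of M-values (TMM) method, as mean ± SD of the 2 replicates, and differences are log2 fold changes fitted by edgeR with their standard error (SE) or 95% interval. In these bulk cultures a change in every cell and a larger change in some of the cells cannot be told apart. A change was called at a Benjamini-Hochberg adjusted p under 0.05 over the 5832 genes tested.

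The first question was which carriers differed between vector-carrying cells with and without mtDNA. PIC2 and DIC1 rose, MIR1, OAC1, ODC1 and YHM2 fell, and SFC1, ODC2, CTP1 and AGC1 did not pass the test. These 6 called of 10 compare with 13.9% of all genes tested, for members chosen with earlier results of these data known. The median log2 fold change of the 10 members was 0.087, beside 0.0084 over all genes, since members moved in both directions. The ρ0 vector and ρ+ vector libraries did not overlap in CPM for 8 of the 10 members, beside 56.7% of all genes tested. In the other comparisons 37.8% to 50.9% of all genes did not overlap. A lack of overlap, given below for single members, is thus common among all genes. DESeq2 and limma on log2 FPKM each called 3 members, PIC2, DIC1 and ODC1.

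**Figure D1:**
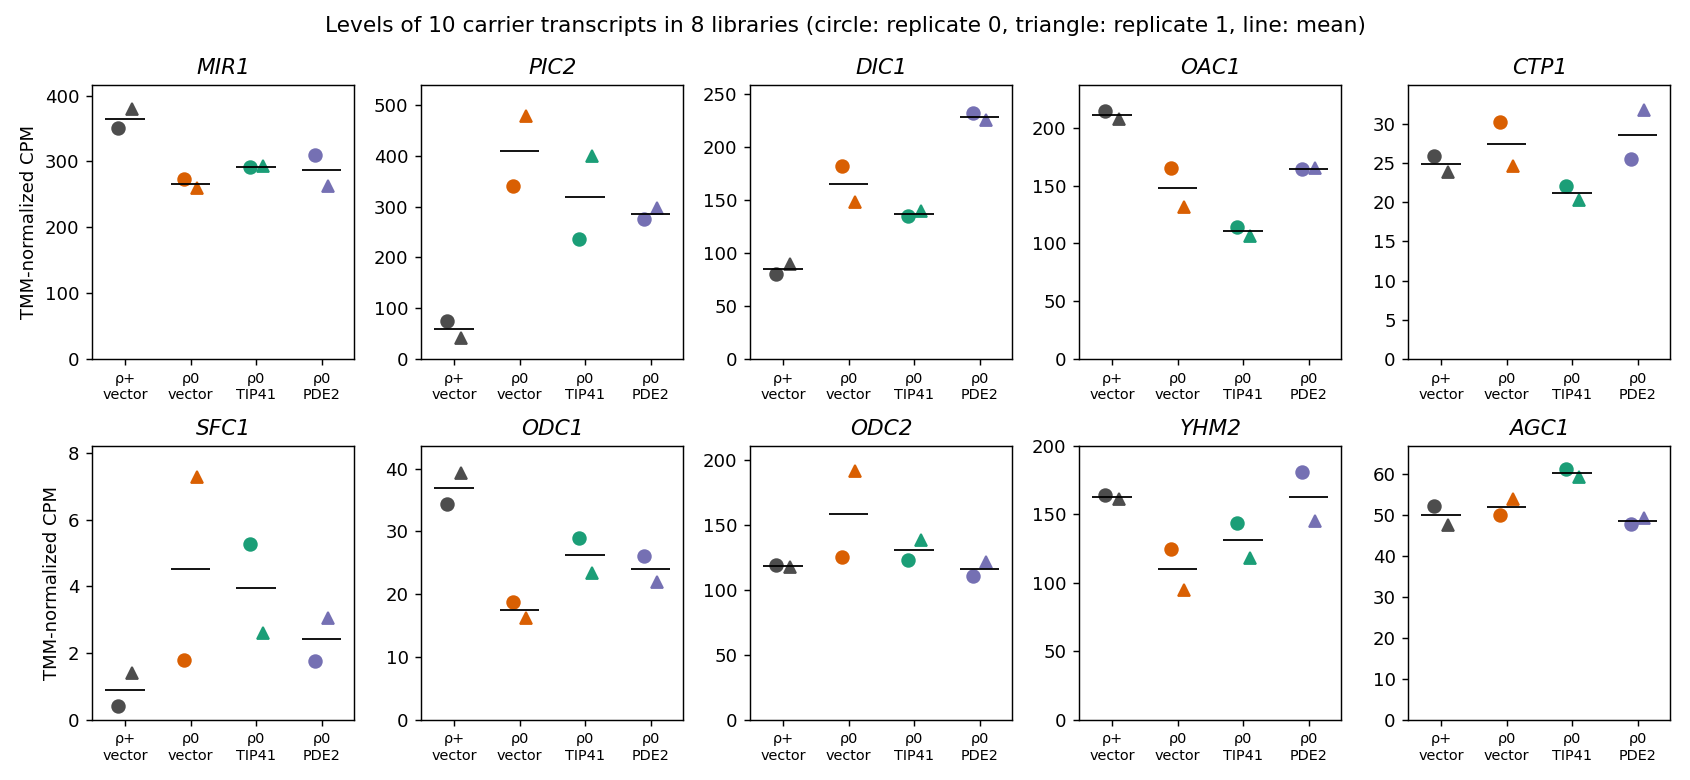
TMM-normalized CPM (vertical axes, from 0, a separate scale for each gene) of the 10 carrier transcripts in the 4 groups. Circles are replicate 0, triangles replicate 1 and lines the mean of 2 libraries. PIC2 lies at 42.1 and 75.1 CPM in ρ+ vector cells and at 237 CPM or above in all 6 ρ0 libraries, while ODC1 lies at 29.03 CPM or below in all 6 ρ0 libraries and at 34.5 and 39.3 in ρ+ cells.

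The phosphate carriers moved in opposite directions. PIC2 (YER053C, chrV:258737-259639, minus strand) encodes the minor phosphate carrier, which also imports copper. It was at 75.1 and 42.1 CPM in ρ+ vector cells, 342 and 478 in ρ0 cells with the vector, 237 and 400.2 with TIP41, and 275 and 298 with PDE2 (replicates 0 and 1). The ρ+ libraries lay below all 6 ρ0 libraries, and the lowest ρ0 level was 237 CPM. PIC2 was thus 58.6 ± 23.3 CPM in ρ+ and 409.9 ± 96.4 in ρ0 vector cells (n = 2 each), a rise of 2.74 on the log2 scale (SE 0.36, adjusted p = 0.00389), or 6.69-fold. It ranked 31st of all tested genes by the size of its fold change and passed in all 16 alternative analyses.

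MIR1 (YJR077C, chrX:577255-578190, minus strand) encodes the major phosphate carrier. Its levels were 351 and 379 CPM in ρ+ vector, 273 and 259.8 in ρ0 cells with the vector, 291 and 293 with TIP41, and 310.2 and 263 with PDE2. Both ρ+ libraries lay above all ρ0 libraries, by a narrower margin than for PIC2. MIR1 fell by 0.45 on the log2 scale with mtDNA loss (SE 0.14, adjusted p = 0.0424). That call passed in 6 of 16 alternatives and was lost without either ρ+ library (adjusted p 0.129 and 0.182 without replicates 0 and 1), without either ρ0 vector library (0.0559 and 0.162), and without either ρ0 TIP41 library (0.066 and 0.0685).

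Levels were compared between genes only as FPKM, which divides by transcript length. PIC2 made up 19.4% and 10.4% of the summed FPKM of PIC2 and MIR1 in the ρ+ libraries, 58.5% and 65.8% with the vector in ρ0 cells, 47.3% and 58.8% with TIP41, and 50.4% and 54.2% with PDE2. By FPKM, PIC2 was the more abundant of both transcripts in 5 of the 6 ρ0 libraries, and MIR1 in both ρ+ libraries. In ρ0 PDE2 replicate 0 the lead was narrow (381 against 375 FPKM), and PIC2 had fewer fragments there than MIR1 (465 against 524). The sum was 551 and 513 FPKM in the ρ+ libraries and 693 to 916 FPKM in the ρ0 libraries. With 2 libraries against 2, a two-sided exact permutation test of the share cannot go below p = 0.333, the value found here.

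**Figure D2:**
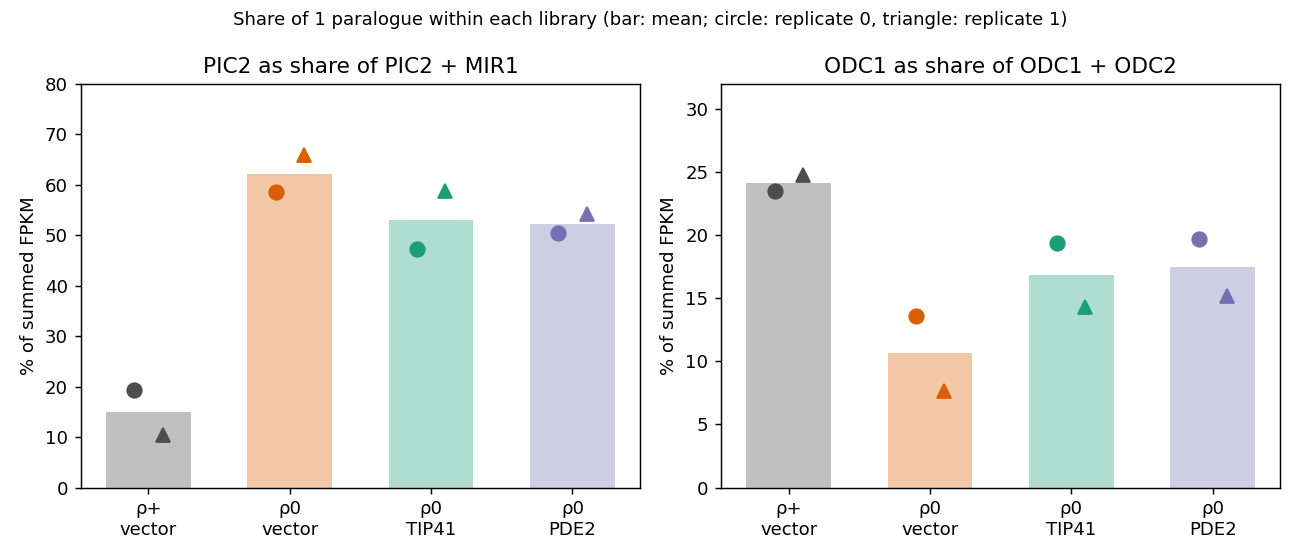
Share of 1 member in the summed FPKM of a pair of related carriers, in percent (vertical axes, from 0), by group. Bars are means of 2 libraries, circles replicate 0 and triangles replicate 1, and PIC2 rises from 10.4% and 19.4% in ρ+ libraries to 47.3% or more in ρ0 libraries while ODC1 goes from 23.5% and 24.8% to 19.7% or less.

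The dicarboxylate and oxaloacetate carriers also parted. DIC1 (YLR348C, chrXII:826977-827873 in RefSeq, minus strand) encodes the dicarboxylate carrier, which exchanges malate or succinate for phosphate. Its level was 80.3 and 89.9 CPM in ρ+ vector, 182 and 148 in ρ0 cells with the vector, 135 and 139 with TIP41, and 232 and 225 with PDE2. No ρ0 library overlapped the ρ+ libraries, and none of the 4 groups overlapped another. With mtDNA loss DIC1 rose by 0.97 (SE 0.14, adjusted p = 3.06e-04), or 1.96-fold. The deposited locus of DIC1 is shared with YLR349W, and the fragments were divided between both genes, DIC1 receiving 85.3% to 92.9% of them. With the fragments of both genes added together the rise was 0.96 (adjusted p = 0.00029), so the call did not rest on this division.

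OAC1 (YKL120W, chrXI:217344-218318, plus strand) encodes a carrier of oxaloacetate and sulfate that also carries isopropylmalate, an intermediate of leucine synthesis. Its level was 214 and 208 CPM in ρ+ vector, 165 and 131 in ρ0 cells with the vector, 114 and 107 with TIP41, and 164 and 165 with PDE2. The ρ+ libraries were the highest and the ρ0 TIP41 libraries the lowest, with no overlap of either with any other group. OAC1 fell by 0.51 with mtDNA loss (SE 0.13, adjusted p = 0.0209). The call was lost without ρ+ replicate 0 (adjusted p = 0.156), ρ+ replicate 1 (0.0757) or ρ0 vector replicate 1 (0.18).

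Among the carriers of 2-oxoglutarate, ODC1 (YPL134C, chrXVI:298571-299503, minus strand) fell the most. Odc1p and Odc2p export 2-oxoglutarate and 2-oxoadipate, the latter an intermediate of lysine synthesis. ODC1 was at 34.5 and 39.3 CPM in ρ+ vector, 18.7 and 16.1 in ρ0 cells with the vector, 29.03 and 23.4 with TIP41, and 26.1 and 22.0 with PDE2. The ρ+ libraries were the highest, the ρ0 vector libraries the lowest, and the libraries of both plasmids lay between them. The fall with mtDNA loss was to 0.482 of the ρ+ level (log2 fold change −1.05, SE 0.21, adjusted p = 0.0038), and it passed in all 16 alternatives.

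ODC2 (YOR222W, chrXV:758330-759253, plus strand) was at 119.6 and 118 CPM in ρ+ vector, 125 and 192 in ρ0 cells with the vector, 123 and 138 with TIP41, and 111 and 121 with PDE2. ρ0 vector replicate 1 stood above the other 7 libraries. The log2 fold change with mtDNA loss was 0.41 (95% interval 0.044 to 0.78, adjusted p = 0.127), and without ρ0 vector replicate 0, which leaves the high library, it was 0.69 (adjusted p = 0.00488). Without ρ0 vector replicate 1 it was 0.075 (adjusted p = 0.839), so the value rested on that library. ODC1 was 23.5% and 24.8% of the summed FPKM of ODC1 and ODC2 in ρ+ libraries, 13.6% and 7.68% with the vector in ρ0 cells, 19.4% and 14.3% with TIP41, and 19.7% and 15.2% with PDE2. ODC2 was thus the more abundant of the pair in every library, and the ODC1 share was lower in all ρ0 libraries than in either ρ+ library (exact permutation p = 0.333 for ρ0 vector against ρ+ vector, the smallest possible).

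YHM2 (YMR241W, chrXIII:751961-752905, plus strand) encodes a carrier that exchanges citrate for 2-oxoglutarate. Its level was 165 and 161 CPM in ρ+ vector, 125 and 94.8 in ρ0 cells with the vector, 144 and 119 with TIP41, and 181 and 145 with PDE2. The ρ0 vector libraries lay below the ρ+ libraries, whereas the ρ0 PDE2 libraries lay on either side of them. YHM2 fell by 0.57 with mtDNA loss (SE 0.16, adjusted p = 0.0304). As for OAC1, the call was lost without ρ+ replicate 0 (adjusted p = 0.199), ρ+ replicate 1 (0.115) or ρ0 vector replicate 1 (0.214). YHM2 was also the only member whose replicate 1 was below its replicate 0 in all 4 groups.

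The remaining members did not pass with mtDNA loss. CTP1 (YBR291C, chrII:783673-784572, minus strand), for the citrate carrier, was at 25.8 and 23.8 CPM in ρ+ vector, 30.3 and 24.6 in ρ0 cells with the vector, 22.1 and 20.3 with TIP41, and 25.5 and 31.8 with PDE2. Its ρ+ and ρ0 vector libraries overlapped, and the log2 fold change was 0.13 (95% interval −0.31 to 0.57, adjusted p = 0.73).

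AGC1 (YPR021C, chrXVI:600649-603357, minus strand), for the aspartate-glutamate carrier, held the narrowest range of the 10 relative to its level. It was at 52.3 and 47.7 CPM in ρ+ vector, 50.1 and 54.1 in ρ0 cells with the vector, 61.4 and 59.3 with TIP41, and 48.0 and 49.4 with PDE2. The ρ0 TIP41 libraries were the highest. The difference between ρ0 and ρ+ vector cells was 0.043 on the log2 scale (95% interval −0.27 to 0.36, adjusted p = 0.938), so a change of more than 0.36 in either direction lay outside the interval.

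SFC1 (YJR095W, chrX:609773-610741, plus strand), for the succinate-fumarate carrier used in growth on acetate or ethanol, was close to the limit of detection. It had 2 and 2 fragments in the ρ+ vector libraries, 5 and 18 in ρ0 cells with the vector, 16 and 5 with TIP41, and 3 and 9 with PDE2. In CPM these were 0.41 and 1.4, 1.8 and 7.26, 5.28 and 2.6, and 1.78 and 3.04. All ρ0 libraries lay above both ρ+ libraries, and the libraries of a group differed widely (1.8 against 7.26 in ρ0 vector cells). Over summed fragments the ρ0 vector to ρ+ ratio was 6.9 (exact 95% interval 2.36 to 27.4, counting error only, 23 against 4 fragments). The fitted log2 fold change of 2.68 (SE 0.89) did not pass (adjusted p = 0.0585). It passed with replicate number as a block (2.50, adjusted p = 0.0301) and without ρ0 vector replicate 0 (3.38, adjusted p = 0.0106), but was 1.40 without ρ0 vector replicate 1 (adjusted p = 0.529) and 1.63 without ρ+ replicate 0 (0.541).

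**Figure D3:**
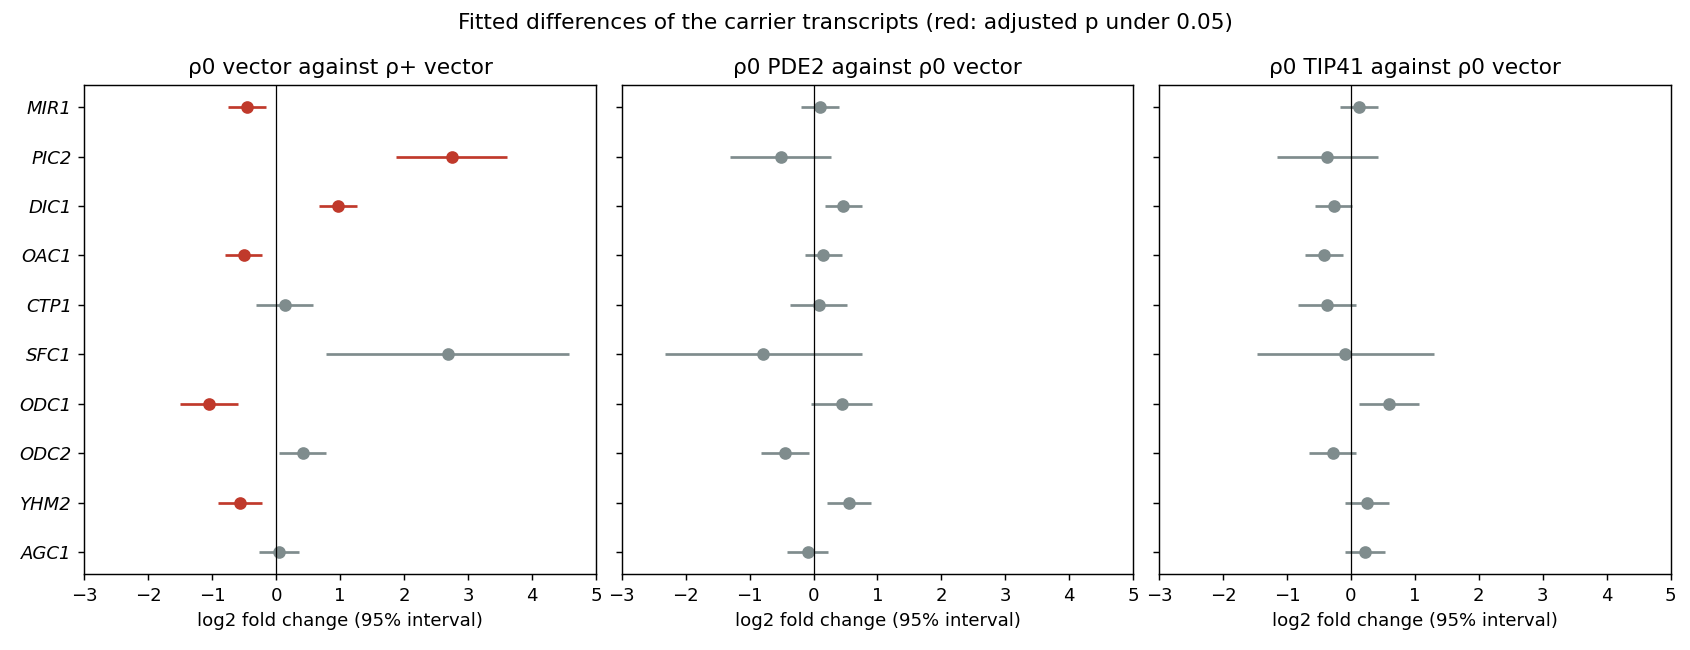
Log2 fold change of each carrier transcript (horizontal axes) with its 95% interval, fitted over 8 libraries, for ρ0 vector against ρ+ vector, ρ0 PDE2 against ρ0 vector and ρ0 TIP41 against ρ0 vector cells. Red points have an adjusted p under 0.05, and there are 6 in the first panel and 0 in each of the others.

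Ordered by FPKM, the carriers of ρ+ vector cells ran from MIR1 (452 ± 11.2), OAC1 (240.1 ± 0.70), YHM2 (189 ± 5.71) and ODC2 (134 ± 15.6) through DIC1 (99.9 ± 21.1) and PIC2 (80.03 ± 37.8) to ODC1 (42.8 ± 7.06), CTP1 (31.5 ± 1.60), AGC1 (19.9 ± 3.35) and SFC1 (1.06 ± 0.81). DIC1 and PIC2 overlapped between libraries and the other neighbours did not. In ρ0 vector cells PIC2 came first (539.8 ± 89.03), then MIR1 (326 ± 17.2). DIC1 (189 ± 0.47), ODC2 (182 ± 75.03) and OAC1 (170.1 ± 27.7) followed, each overlapping its neighbour among them. YHM2 (126 ± 17.6), CTP1 (34.6 ± 4.83), AGC1 (20.5 ± 1.17), ODC1 (19.9 ± 0.50) and SFC1 (5.23 ± 4.48) came last, and of these only AGC1 and ODC1 overlapped. PIC2 therefore stood 6th among the carriers in ρ+ cells and 1st in ρ0 vector cells, whereas ODC1 went from 7th to 9th.

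High-copy PDE2 and TIP41 were compared with the empty vector in ρ0 cells to ask whether either changed the carriers there. No member passed with PDE2 (0 of 10, against 2.3% of all genes) or with TIP41 (0 of 10, against 0.412%). At an unadjusted p under 0.05 there were 3 members with PDE2 and 2 with TIP41, beside 19.7% and 10.7% of all genes tested, so these counts are near the background. DESeq2 called 0 members with either plasmid. The tests for PDE2, TIP41 and mtDNA loss share the ρ0 vector libraries, so their fold changes are not independent.

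With PDE2, YHM2 was 163 ± 25.5 CPM against 109.9 ± 21.3 (n = 2 each), 0.56 higher on the log2 scale (SE 0.16, adjusted p = 0.0753), and it passed with replicate number as a block (0.57, adjusted p = 0.00548). DIC1 was 228 ± 4.85 CPM against 165 ± 23.7, 0.47 on the log2 scale (SE 0.13, adjusted p = 0.0737, and 0.0173 with the block). ODC2 was 116 ± 7.54 CPM against 159 ± 46.9, −0.44 on the log2 scale (SE 0.17, adjusted p = 0.174, and 0.0426 with the block). All 3 passed without ρ0 vector replicate 0 (0.78, 0.62 and −0.72, adjusted p 0.0165, 0.0239 and 0.00832) and none without ρ0 vector replicate 1 (0.38, 0.33 and −0.11, adjusted p 0.338, 0.339 and 0.816). The value of ODC2 thus rested on the high ρ0 vector replicate 1.

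For PIC2, the carrier with the largest rise in ρ0 vector cells, the log2 fold change was −0.51 with PDE2 (95% interval −1.31 to 0.28, adjusted p = 0.445) and −0.37 with TIP41 (−1.16 to 0.42, adjusted p = 0.743). ODC1 stood 0.44 above ρ0 vector with PDE2 (−0.041 to 0.92, adjusted p = 0.296) and 0.60 above it with TIP41 (0.13 to 1.07, adjusted p = 0.372). OAC1 was 110.3 ± 5.37 CPM with TIP41 against 148 ± 23.9 with the vector (log2 fold change −0.42, SE 0.14, adjusted p = 0.313). None of these differences passed. MIR1, CTP1 and AGC1 had log2 fold changes of −0.094 to 0.10 with PDE2 and −0.37 to 0.21 with TIP41. SFC1 had −0.78 with PDE2 and −0.090 with TIP41 (95% intervals −2.32 to 0.75 and −1.47 to 1.30). The remaining values were 0.15 for OAC1 with PDE2, and −0.27 for DIC1, −0.28 for ODC2 and 0.26 for YHM2 with TIP41.

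Between the plasmids, 1 of 10 members differed (0.394% of all genes): DIC1 was higher with PDE2 than with TIP41, at 228 ± 4.85 against 137 ± 3.37 CPM (n = 2 each), 0.74 on the log2 scale (SE 0.13, adjusted p = 0.0275), or 1.67-fold. With the fragments of YLR349W added it was 0.67 (adjusted p = 0.042). The call was lost without either ρ+ library (adjusted p 0.0729 and 0.081 without replicates 0 and 1), either TIP41 library (0.303 and 0.187) or either PDE2 library (0.167 and 0.141), and by limma on log2 FPKM (0.817 and 0.855 with pseudocounts of 1 and 0.1). OAC1 was also higher with PDE2, by 0.58 (SE 0.14, adjusted p = 0.129), and passed with the block (0.58, adjusted p = 0.0172). The other 8 members had adjusted p of 0.758 or above.

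Set against ρ+ vector cells, PIC2 and DIC1 were higher in ρ0 PDE2 cells (2 of 10 called, against 5.13% of all genes). PIC2 stood 2.23 higher on the log2 scale (SE 0.36, adjusted p = 0.0197) and DIC1 1.43 higher (SE 0.14, adjusted p = 2.40e-05). The DIC1 call passed in all 17 alternatives. That of PIC2 was lost without either PDE2 library (adjusted p 0.101 both times) and without either ρ0 vector library (0.0503 and 0.0515). For YHM2 the difference between ρ0 PDE2 and ρ+ cells was −0.0061 (95% interval −0.35 to 0.33, adjusted p = 0.988). MIR1, OAC1 and ODC1 were −0.35, −0.36 and −0.61 relative to ρ+ cells, and none passed (adjusted p 0.181, 0.153 and 0.112).

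In ρ0 TIP41 cells 3 of 10 members differed from ρ+ cells (against 5.25% of all genes). PIC2 was 2.37 higher (SE 0.36, adjusted p = 0.0138) and DIC1 0.70 higher (SE 0.14, adjusted p = 0.00757). OAC1 was 0.93 lower (log2 fold change −0.93, SE 0.14, adjusted p = 9.19e-04), and this passed in all 16 alternatives. The PIC2 call was lost in the fit of these 2 groups alone (adjusted p = 0.177). That of DIC1 was lost without ρ+ replicate 0 (0.177), without TIP41 replicate 1 (0.0605) and by limma on log2 FPKM (0.238 and 0.239). SFC1 was 2.59 higher (adjusted p = 0.125, and 0.0488 with the block). YHM2, MIR1 and ODC1 were −0.31, −0.32 and −0.45 relative to ρ+ cells and did not pass (adjusted p 0.332, 0.229 and 0.246). OAC1 therefore passed against ρ+ cells with the vector and with TIP41, but whether its change differed between them was not called (adjusted p = 0.313 for TIP41 against vector in ρ0 cells).

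The genes around the carriers were described from lists of the enzymes that make or use the carried metabolites, without a test of any list as a whole. Of 13 enzymes of citrate, isocitrate and 2-oxoglutarate, 6 rose and 1 fell with mtDNA loss (median log2 fold change 0.91). IDH2 and IDH1, the subunits of NAD-dependent isocitrate dehydrogenase, rose by 3.72 (SE 0.20, adjusted p = 2.03e-08) and 3.60 (SE 0.21, adjusted p = 6.56e-08). ACO1, for aconitase, rose by 2.51 (SE 0.32, adjusted p = 0.00156), and IDP2, for the cytosolic NADP-dependent isocitrate dehydrogenase, by 1.00 (SE 0.27, adjusted p = 0.0251). These enzymes lie between citrate and 2-oxoglutarate, the substrates of Yhm2p, whose transcript fell.

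Of 13 enzymes of succinate, fumarate, malate and oxaloacetate, 0 rose and 6 fell (median −0.56). SDH1, SDH2 and SDH3, for subunits of succinate dehydrogenase, had log2 fold changes of −1.58, −1.03 and −1.01. LSC2, for a subunit of succinyl-CoA ligase, fell by 1.18. These 4 had adjusted p of 9.30e-04 to 0.00819. DIC1, whose product carries succinate and malate, thus rose while these transcripts fell.

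In the list of 11 genes of leucine, isoleucine and valine synthesis, 0 rose and 2 fell: LEU1, for isopropylmalate isomerase (log2 fold change −0.88, adjusted p = 0.0176), and BAT1, for the mitochondrial branched-chain aminotransferase (−0.74, adjusted p = 0.00636). LEU2 was left out of this list because it is deleted in the strain. Of 9 lysine genes LYS9 alone changed, falling by 1.04 (adjusted p = 4.03e-04). Of 7 enzymes of aspartate, glutamate and glutamine metabolism, GDH3 (1.47) and AAT2 (0.91) rose and GDH1 (−1.27) fell, with adjusted p of 1.64e-04 to 0.00293. Among 8 genes of the glyoxylate cycle and gluconeogenesis MLS1 (1.68, adjusted p = 0.0129) and PCK1 (1.52, adjusted p = 0.00293) rose, both at low levels of 11.6 and 17.97 CPM in ρ0 vector cells. In each of these lists most genes did not pass.

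**Figure D4:**
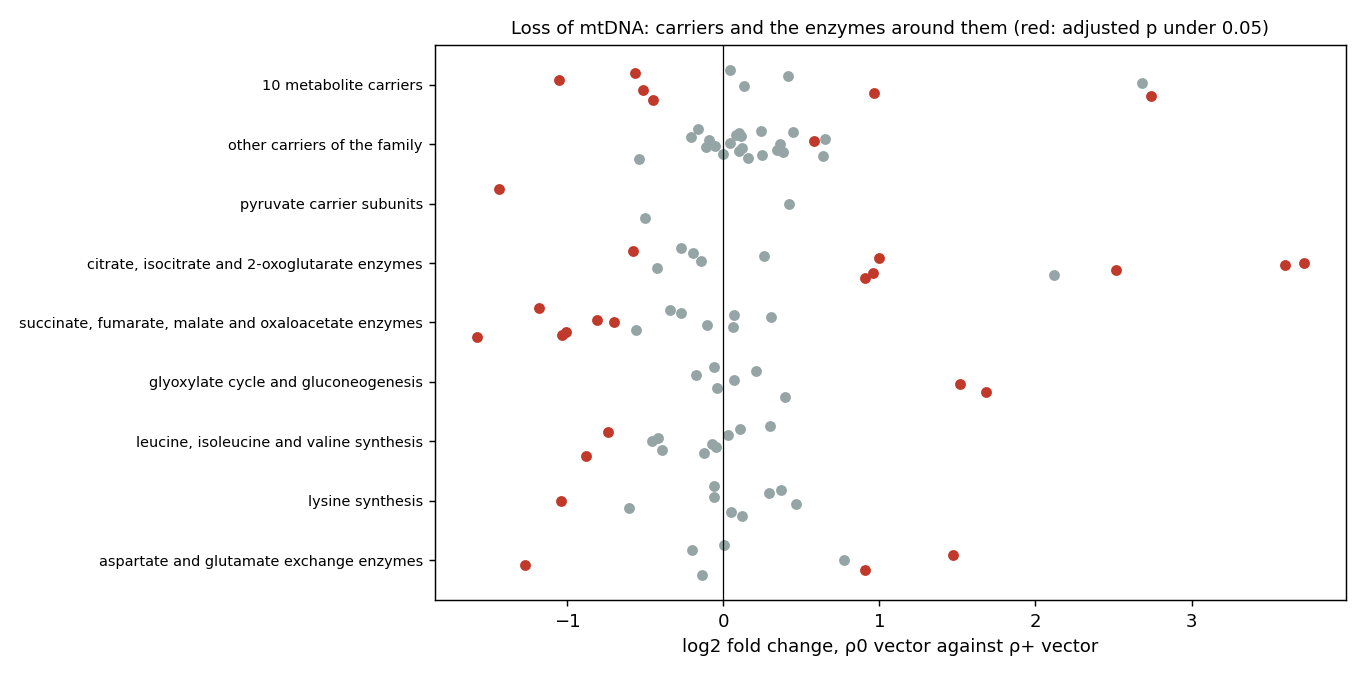
Log2 fold change of ρ0 vector against ρ+ vector cells (horizontal axis) for the 10 metabolite carriers and for 8 lists of related genes, 1 point a gene, red where the adjusted p was under 0.05. The carriers and the citrate to 2-oxoglutarate enzymes reach the highest values, up to 2.74 and 3.72, and the other carriers of the family hold 1 red point at 0.58.

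Of 23 other genes of the carrier family that were tested, 1 rose and 0 fell with mtDNA loss (median 0.11, beside 13.9% of all genes called), namely MTM1, for a carrier linked to manganese superoxide dismutase (0.58, SE 0.16, adjusted p = 0.0265). The share called was not tested against that of the 10 metabolite carriers. Of 3 subunits of the pyruvate carrier, which belongs to another family, MPC3 fell by 1.44 (SE 0.38, adjusted p = 0.0209), at 4.20 CPM in ρ0 vector and 12.04 in ρ+ cells. In ρ0 cells none of the 23 other carriers or the 3 pyruvate carrier subunits passed with PDE2 or TIP41. Of the genes in the enzyme lists, 6 passed with PDE2 in ρ0 cells. IDH1 (−1.18, adjusted p = 0.00479) and IDH2 (−0.97, 0.0106) fell. LSC2 (0.92, adjusted p = 0.0301), LYS9 (0.89, 0.00853), GDH1 (0.86, 0.0173) and MDH3 (0.57, 0.0423), for the peroxisomal malate dehydrogenase, rose. With TIP41 only IDH1 passed, falling (−1.01, adjusted p = 0.0275).

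Over the 8 libraries the log2 CPM of MIR1 and ODC1 varied together (Pearson r = 0.92), and that of MIR1 and PIC2 inversely (r = −0.93), as did that of ODC2 and YHM2 (r = −0.92). These are descriptions over libraries of 4 groups, in which the difference between ρ+ and ρ0 cells is shared by all genes that follow it. Among genes averaging 3 or more on the log2 CPM scale, those nearest to PIC2 were YRO2 (r = 0.996), HSP30 (0.992) and GCR1 (0.982). YRO2 and HSP30 encode related membrane proteins and GCR1 a transcription factor of glycolytic genes. Those nearest to SFC1, whose counts are few, were GYL1 (0.973), LYS5 (0.947) and ATG8 (0.940).

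The region from 250 bases before to 50 bases after the start codon was searched on both strands for short words known from regulators of metabolism. GTCAC, the site of the retrograde factors Rtg1p and Rtg3p, occurred in 26.4% of 6020 such regions and in those of OAC1, CTP1 and ODC1. CCAAT, the core of the Hap complex site, occurred in 43.3% and in those of MIR1, PIC2 and AGC1, those of PIC2 and AGC1 lying after the start codon. AGGGG, the stress element, occurred in 21.6% and in that of SFC1, and TGACTC, the Gcn4p core, in 7.96% and in those of CTP1, SFC1 and ODC2. The word CCG, 4 bases, CGG, which Leu3p binds, occurred in 1.4% and in that of MIR1. Neither PIC2, which rose most, nor DIC1 held GTCAC in this window. The matches of ODC1 and OAC1, whose transcripts fell, and the Leu3p word of MIR1 are shown, with the word in capitals as it reads on the gene's strand.
ODC1, 99 bases before the start codon (chrXVI:299585-299614, minus strand): atttctgtgaggGTGACcgccgttgatata
ODC1, 76 bases before the start codon (chrXVI:299562-299591, minus strand): tgatatatatcaGTGACttttgggaacctt
OAC1, 184 bases before the start codon (chrXI:217148-217177, plus strand): aaatttcaagctGTGACtaagtcgtcaaat
MIR1, 135 bases before the start codon (chrX:578306-578335, minus strand): ggtcccatgcCCGGCCGCGGcccgtttcga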

How the data were processed

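RNA from 8 cultures was sequenced as polyadenylated, paired-end libraries. Per the paper, different experimenters made the 2 replicates of a group. The labels do not say that a replicate number marks the same experimenter in all groups. The estimated counts deposited by the authors are Cuffdiff 2.2.1.1 fragments per gene and library, from TopHat2 2.0.14 alignments to R64, before scaling, with fragments of several alignments or shared loci divided (12.3% of values above 0 were not whole, tolerance 0.001). FPKM values, also deposited by the authors, were scaled by the geometric method and corrected for sequence bias. The deposited fold changes, p-values and q-values of the authors' own comparisons were not used.

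Estimated counts were rounded and tested with edgeR 4.0.16 in R 4.3.3: filterByExpr (5832 genes), TMM, 1 fit of 4 groups with robust quasi-likelihood dispersions (4 residual degrees of freedom), Benjamini-Hochberg adjustment over all genes of a comparison. The SE was taken as the size of a log2 fold change over the root of its F statistic. The 95% intervals use t quantiles at the total degrees of freedom, the residual ones plus prior ones estimated over all genes. P-values of this fit set a difference against the spread between replicate libraries, pooled over all 4 groups and moderated with that of other genes. All 10 members are named whatever their test gave, and other genes only from the lists where called, at most 4 a list, largest fold first, and as the 3 nearest patterns of the 2 members with the largest fold. The members and lists were chosen with earlier results of these data known. Deviations from group means of same-numbered libraries correlated at 0.186 to 0.504 in all 6 pairs of groups, and the numbers were taken to pair the libraries in the block alternative only. Alternatives were RLE size factors, DESeq2 1.42.0, no filter, a filter of 50 fragments, a fit of the 2 groups alone, replicate number as a block (replicate block), limma 3.58.1 on log2(FPKM + 1) and log2(FPKM + 0.1), and each library left out. Adding the fragments of YLR349W to DIC1 was chosen after seeing the data. Tests were tried on simulated counts. Coding sequences and start regions were read from the RefSeq R64 genome, where 9 of 10 members have the deposited start and end. Strand setting of the counting is not given in the sources used here.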

Additional observations from a re-analysis of the deposited data

Results flagged for a closer look

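DIC1, for the dicarboxylate carrier, was called different in level between the ρ0 PDE2 and ρ0 TIP41 cells. Its log2 fold change against the vector was 0.47 with PDE2 (adjusted p = 0.0737) and −0.27 with TIP41 (0.504), and neither passed. The tested difference between the plasmids was 0.74 (adjusted p = 0.0275). Both PDE2 libraries (232 and 225 CPM) lay above both TIP41 libraries (135 and 139 CPM), with ρ0 vector between them at 182 and 148 CPM. The call was lost in 8 of 17 alternatives, including each in which a PDE2, TIP41 or ρ+ library was left out, as given above.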

How the results depend on the processing

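The number of carriers called with mtDNA loss, 6, was 3 by DESeq2 and by limma with either pseudocount, 5 in the fit of only the 2 groups compared, and 7 with the replicate block. For PDE2 in ρ0 cells the count of 0 became 3 with the replicate block. For PDE2 against TIP41 the count of 1 became 2 with the block and 0 by limma with either pseudocount. Leaving out 1 library at a time gave 3 to 7 with mtDNA loss, 0 to 3 with PDE2, 0 with TIP41, 0 to 2 between the plasmids, and 1 to 2 and 2 to 3 for ρ0 PDE2 and ρ0 TIP41 against ρ+ cells. Besides the calls given beside their results, the block changed none. Over all genes, calls with mtDNA loss (809) ranged from 258 to 1160 over the alternatives, those with PDE2 (134) from 1 to 571 and those with TIP41 (24) from 2 to 116. Those between the plasmids (23) ranged from 2 to 54, and against ρ+ cells from 59 to 563 with PDE2 (299) and from 70 to 563 with TIP41 (306). Of 955 values of a member in a comparison, 882 kept direction and side of the threshold, 39 lost the call, 13 gained it and 21 changed sign, the last in 14 results of which 0 had been called.

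The sign changed for SFC1 with TIP41 in ρ0 cells with the block (0.027) and by limma on log2(FPKM + 0.1) (0.00345), and for YHM2 in ρ0 PDE2 against ρ+ cells with the block (0.0072). With 1 library left out, log2 fold changes that changed sign ranged as follows. With mtDNA loss, CTP1 ranged from −0.033 to 0.26 and AGC1 from −0.016 to 0.13. With PDE2 in ρ0 cells, MIR1 ranged from −0.015 to 0.22, OAC1 from −0.0024 to 0.33, CTP1 from −0.11 to 0.24 and SFC1 from −1.49 to 0.49. With TIP41, SFC1 ranged from −0.80 to 1.18 and ODC2 from −0.56 to 0.056. Between the plasmids, MIR1 ranged from −0.14 to 0.086, PIC2 from −0.48 to 0.28 and ODC1 from −0.28 to 0.021. In ρ0 PDE2 against ρ+ cells, ODC2 ranged from −0.10 to 0.037, YHM2 from −0.16 to 0.15 and AGC1 from −0.10 to 0.040. The cause of these shifts was not tested. SFC1, with 2 to 18 fragments a library, has no value under the filter of 50 fragments or in some fits of 2 groups, and its depth limits what can be said of it.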
